A study of Mus musculus with 7 samples.

Results

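Long intergenic noncoding RNAs (lincRNAs) are transcripts that lie between protein-coding genes and have no annotated reading frame. The 136 lincRNAs described here were chosen by a readout, their own counts: each had at least 100 expected counts in every one of 7 libraries, carried the lincRNA class in the authors' exon annotation (Ensembl release 84, GRCm38) and lay on no sex chromosome. They are 136 of 3062 autosomal lincRNAs, of 3707 lincRNAs in all and of 47729 genes in the count table. *Meg3*, *Rian*, *Mirg*, *H19*, *Peg13*, *Dlx6os1* and *Dlx1as* were left out by name, and 2 of these 7 met the other criteria. Because a count was required in every library, a lincRNA that fell below 100 counts in a single pool could not be a member, so large falls and rises of rare lincRNAs are missing from the set by construction.

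The RNA came from the forebrain of mice at postnatal day 15 (P15), 4 control samples with genotype *Lhx6*+/- and 3 mutant samples with genotype *Lhx6*-/-. All animals were of the strain F1(C57BL/6 X 129Sv), the mutation was the *Lhx6*tm2Vpa allele, and the controls also carried 1 copy of it. *Lhx6* is a LIM homeobox gene needed by interneurons born in the medial ganglionic eminence (MGE), and it was inactivated in the whole mutant animal, not in a single cell type. Each sample pooled 2 animals, so every p-value below measures the spread between pools, and in such whole-tissue RNA fewer cells of a type and less RNA per cell cannot be told apart. In the count table control pools are libraries 2, 3, 10 and 11 and mutant pools are libraries 5, 12 and 13. The pools differed in sex, which the table does not give.

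Some lincRNAs act as RNAs, for example by holding proteins at a site in the nucleus. Others are made mainly as the precursor of a small RNA, such as a microRNA (miRNA) cut from a hairpin or a small nucleolar RNA (snoRNA) cut from an intron, and the rest of the transcript is then called a host. In the brain, miR-124 is a marker of neurons, miR-9 is known from neural progenitors and neurons, and *Malat1*, *Miat* and *Neat1* are nuclear transcripts.

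The sequences that the results turn on are those of the miRNAs inside member lincRNAs and those of the promoters and motifs of the members described below. miRNA sequences were taken from RefSeq (GRCm38.p6), which held 12 of the 19 miRNA genes found inside members on the same strand; none was matched for the miR-124 genes. The capitals mark the seed, bases 2 to 8, which directs a miRNA to its targets. The same miR-9-5p and miR-9-3p come from *Mir9-1*, *Mir9-2* and *Mir9-3*, which lie in 3 different members, while miR-129-5p comes from *Mir129-1* in *Gm3294*.
miR-9-5p: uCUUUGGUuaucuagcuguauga
miR-9-3p: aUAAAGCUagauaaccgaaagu
miR-129-5p: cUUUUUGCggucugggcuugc
miR-7a-5p, made outside the members and shown for its site in *1700020I14Rik*: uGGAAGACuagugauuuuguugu

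The hairpin of *Mir9-3*, at chr7:79505264-79505353 on the plus strand (GRCm38.p6), is shown because its host *AI854517* differed between the genotypes. The capitals mark the 2 mature miRNAs, and the hairpin lay in an intron of the host.
mir-9-3 hairpin: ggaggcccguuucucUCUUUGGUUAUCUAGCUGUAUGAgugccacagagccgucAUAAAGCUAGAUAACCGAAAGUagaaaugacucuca

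Among 136 lincRNAs, 7 passed the test between the genotypes (edgeR's quasi-likelihood test, adjusted p of 0.05 or less over all 19684 genes tested). *AI854517*, *Gm26809* and *6330403K07Rik* were higher in mutants, and *A830009L08Rik*, *Mir124a-1hg*, *Gm15721* and *Gm43597* were lower. Of all genes tested, 4.85% passed, 2.97% as higher and 1.87% as lower in mutants, so the members' 7 of 136 (5.15%) was close to the background. The median log2 fold change of the 136 members was -0.02 and that of all tested genes -0.01, and 63 members had a positive and 73 a negative fold change. In 80 members the log2 fold change was within 0.2 of 0. Libraries of the genotypes did not overlap in 23 members, 11 above and 12 below the controls, against 19.7% of all genes, and 25 members had an unadjusted p of 0.05 or less, against 18.2% of all genes.

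The targeted gene followed the labels: *Lhx6* stood at 615, 522, 476 and 522 normalized counts in the control pools (libraries 2, 3, 10 and 11) and at 70.9, 76.6 and 70.1 in the mutant pools (5, 12 and 13). Libraries summed to between 32556304 and 38069151 expected counts, and the members took between 0.501% and 0.634% of them. Of the marker lists, 6 of 10 markers of MGE interneurons were lower and 2 higher in mutants (summed level 18487 to 20481 normalized counts in control and 10894 to 12216 in mutant libraries). Of 9 oligodendrocyte markers 3 were lower (summed level 244887 to 320816 in control and 175838 to 220094 in mutant libraries), and of 9 markers of interneurons from the caudal ganglionic eminence 4 were higher (14217 to 18115 and 21931 to 25612). Summed levels did not overlap for astrocyte markers either (213741 to 309084 and 318204 to 378539) or for endothelial ones (7518 to 8148 and 9601 to 9956), which were higher in mutants, nor for microglial ones (14229 to 14605 and 12082 to 14016), which were lower. None of 9 astrocyte, 7 endothelial and 8 microglial markers passed edgeR's test, with 3, 5 and 2 at an unadjusted p of 0.05 or less, 2, 3 and 0 called by DESeq2 and 0 by limma-voom. Of lists whose summed levels overlapped, 2 of 10 immediate early genes were higher, 1 of 8 markers of striatal projection neurons was higher, and of 9 markers of cortical excitatory neurons 1 was higher and 1 lower. No defining marker of these lists was at 0, and their part in the lincRNA differences was not tested. Libraries 2, 3 and 5 stood apart from libraries 10 to 13 on the first principal component of all tested genes (39.3% of the variance, scores -68.9 to -34.7 and 33.4 to 41.6). Fold changes within each set are therefore given beside some of the members.

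**Figure D1:**
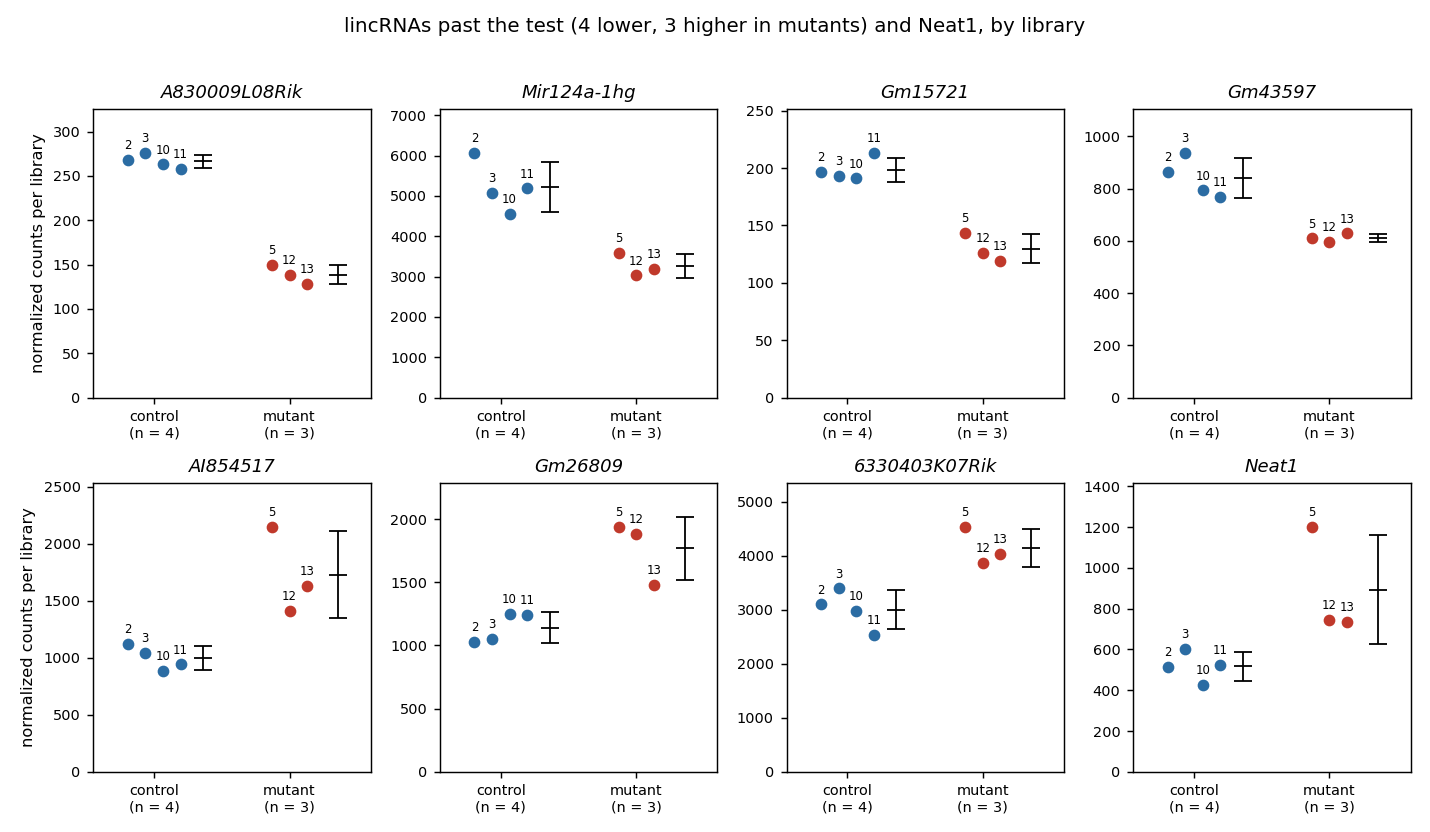
Normalized counts of the 7 lincRNAs past the test and of *Neat1* in each library, with the library number above each point; blue points are control and red points mutant libraries, and the bars give the mean and SD beside them. In all 8 panels the 3 mutant libraries lie on one side of the 4 control libraries, and *Neat1* missed the threshold at an adjusted p of 0.0556.

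Of the lower members, *A830009L08Rik* (chr13:91368990-91388085, minus strand, 3 exons), a transcript without an assigned function, had the smallest p. Its normalized counts were 268, 276, 263 and 258 in the control pools 2, 3, 10 and 11. The mutant pools 5, 12 and 13 had 149, 139 and 128. Mutants averaged 52.1% of the controls, and every mutant library lay well below every control. The log2 fold change was -0.94 (SE 0.12, adjusted p = 0.0035). It was -0.86 from libraries 2, 3 and 5 alone and -0.96 from libraries 10 to 13 alone. It passed the test under each of 17 alternatives, including each library left out in turn. Its exons overlapped no other gene, 0% of its 36-base words (every stretch of its transcripts as long as a read) occurred in another gene, and per kb of exon its level was 94.8 in controls and 49.4 in mutants.

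Its promoter is shown because of this smallest p among the members, from 250 bases before to 50 bases after the annotated start (RefSeq, GRCm38.p6, chr13:91388036-91388335, minus strand). The motifs searched on both strands were TGACGTCA, known as the cyclic AMP response element, TGACTCA, known as the AP-1 site, whose reverse complement TGAGTCA gives the same hits, TAATTA, a core known to be bound by homeodomain proteins, and the E-box CACGTG. They occurred in 1.79%, 5.2%, 5.29% and 7.15% of 32851 promoters and in 5, 4, 4 and 6 of 78 promoters of the 68 members found in the RefSeq table. None of these letters was in the window of *A830009L08Rik*.
A830009L08Rik promoter: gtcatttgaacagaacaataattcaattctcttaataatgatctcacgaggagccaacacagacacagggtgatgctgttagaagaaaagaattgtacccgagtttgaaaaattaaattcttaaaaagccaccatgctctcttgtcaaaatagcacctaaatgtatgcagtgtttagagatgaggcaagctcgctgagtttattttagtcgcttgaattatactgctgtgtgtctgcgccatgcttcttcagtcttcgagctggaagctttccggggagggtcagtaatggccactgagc

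*Gm15721* (chr5:147949882-147957166, minus strand) had 196, 193, 191 and 213 normalized counts in control and 144, 126 and 119 in mutant libraries. It lay 154 bases from *Mtus2*, which lies on the opposite strand and is known as a microtubule-associated protein. The fold change on the log2 scale was -0.61 (SE 0.13, adjusted p = 0.0316). *Gm43597* (chr5:150599932-150607003, minus strand), 1004 bases from *N4bp2l2*, had 864, 938, 793 and 767 normalized counts in control and 609, 595 and 629 in mutant libraries. The mutant values of *Gm43597* lay close together, below every control. A log2 fold change of -0.46 (SE 0.10, adjusted p = 0.0347) was found. Both calls were lost when any library other than control library 3 was left out, with adjusted p-values up to 0.165 for *Gm15721* and 0.145 for *Gm43597*. With no filter on low counts the call of *Gm15721* was lost too (adjusted p = 0.0822).

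*Mir124a-1hg* (chr14:64587331-64593961, plus strand) holds *Mir124a-1* in an exon and was the most abundant of the called members by total count. Control libraries 2, 3, 10 and 11 held 6074, 5083, 4564 and 5187 normalized counts of it. The mutant pools 5, 12 and 13 held 3591, 3027 and 3182. Mutant libraries averaged 62.5% of the controls, and the groups did not overlap. The log2 fold change was -0.68 (SE 0.11, adjusted p = 0.0123), and it was -0.64 in either set of libraries, 2, 3 and 5 or 10 to 13. The call was lost without mutant library 12 or 13, with an adjusted p of at most 0.0742.

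The other members that touch a miR-124 gene did not pass the test. *Mir124-2hg* (chr3:17789921-17808970), with part of *Mir124a-2* in an exon, had 1033 to 1280 normalized counts in control and 1151 to 1263 in mutant libraries. A log2 fold change of 0.08 (SE 0.10, adjusted p = 0.778) separated genotypes that overlapped. *Gm27032* (chr2:180894105-180895220) begins at the end of *Mir124a-3*, sharing 3 bases with it, and had 377 to 468 in control and 350 to 441 in mutant libraries (log2 fold change -0.11, SE 0.13, adjusted p = 0.738). Per kb of exon, controls had 1088 for *Mir124a-1hg*, 382 for *Gm27032* and 190 for *Mir124-2hg*, and mutants 680, 354 and 201. *Gm27032* is not counted among the hosts of small RNAs. The difference between these lincRNAs was not tested, and these counts are of the lincRNA transcripts, not of the mature miRNA.

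*AI854517*, named *Mir9-3hg* in the later GENCODE M21 annotation (chr7:79500026-79534403, plus strand), was the higher member with the smallest p. Controls 2, 3, 10 and 11 had 1121, 1043, 885 and 942 normalized counts, and mutants 5, 12 and 13 had 2148, 1413 and 1631. The lowest mutant library lay above the highest control, and library 5 was the highest of all. The log2 fold change was 0.79 (SE 0.15, adjusted p = 0.0187), with 0.99 from libraries 2, 3 and 5 and 0.75 from libraries 10 to 13. The call was lost without control library 10, control library 11 or mutant library 13, with an adjusted p of at most 0.07. None of its 36-base words occurred in another gene.

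The promoter of *AI854517* at its annotated start (RefSeq, GRCm38.p6, chr7:79499776-79500075, plus strand) held 35 CG dinucleotides, where the median was 7 over 32851 promoters and 13.5 over the 78 promoters of members. Of those 78, 12 held more than 35. The promoter of *AI854517* also held TGACGTCA, beginning at base -51 from the start and shown in capitals. The promoter of *Gm3764*, host of *Mir9-1*, held the same letters at base -91. They were absent from the other RefSeq promoter of *AI854517* (chr7:79515185-79515484). No promoter of *C130071C03Rik*, which hosts the same mature miRNAs, held them. Promoters of *C030037D09Rik*, *1300002E11Rik* and *B230354K17Rik*, which did not pass the test, held them too. A match describes these letters and is no evidence of binding.
AI854517 promoter: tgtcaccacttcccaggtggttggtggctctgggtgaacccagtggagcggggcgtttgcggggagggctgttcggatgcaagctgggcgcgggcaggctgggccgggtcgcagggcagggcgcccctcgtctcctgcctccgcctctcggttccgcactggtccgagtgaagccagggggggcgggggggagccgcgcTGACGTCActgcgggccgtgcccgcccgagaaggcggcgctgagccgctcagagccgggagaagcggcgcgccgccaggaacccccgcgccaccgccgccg

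The hosts of *Mir9-1* and *Mir9-2* did not pass the test. *C130071C03Rik* (chr13:83721381-83884194, plus strand), with *Mir9-2* in an exon and beside the transcription factor gene *Mef2c*, had 1617, 1712, 1623 and 1479 normalized counts in control and 1719, 1723 and 1870 in mutant libraries. The lowest mutant value stood just above the highest control, and the log2 fold change was 0.14 (SE 0.08, adjusted p = 0.404). *Gm3764* (chr3:88206813-88229959, plus strand), with *Mir9-1* in an intron, had 2235, 1965, 1450 and 1670 in control and 2521, 1408 and 1709 in mutant libraries. The mutant libraries ran from below the lowest to above the highest control, and the log2 fold change was 0.04 (SE 0.21, adjusted p = 0.954). Per kb of exon the hosts stood close to each other in controls, at 315 for *Gm3764*, 284 for *C130071C03Rik* and 229 for *AI854517*. In mutants *AI854517*, at 396 per kb, was the highest of them, with 323 for *Gm3764* and 313 for *C130071C03Rik*.

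Directly downstream of *AI854517*, on the same strand, lies another member, *RP23-207N5.2* (chr7:79536043-79560033), which is named here after its values were seen. It had 1277, 823, 994 and 1144 normalized counts in control and 1570, 1465 and 1425 in mutant libraries, which did not overlap. On the log2 scale the fold change was 0.49 (SE 0.14, adjusted p = 0.0906), so that it missed the threshold. The call was made by DESeq2 (adjusted p = 0.0195), and by edgeR in libraries 10 to 13 alone (adjusted p = 0.0174) and without control library 2 (adjusted p = 0.0471).

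**Figure D2:**
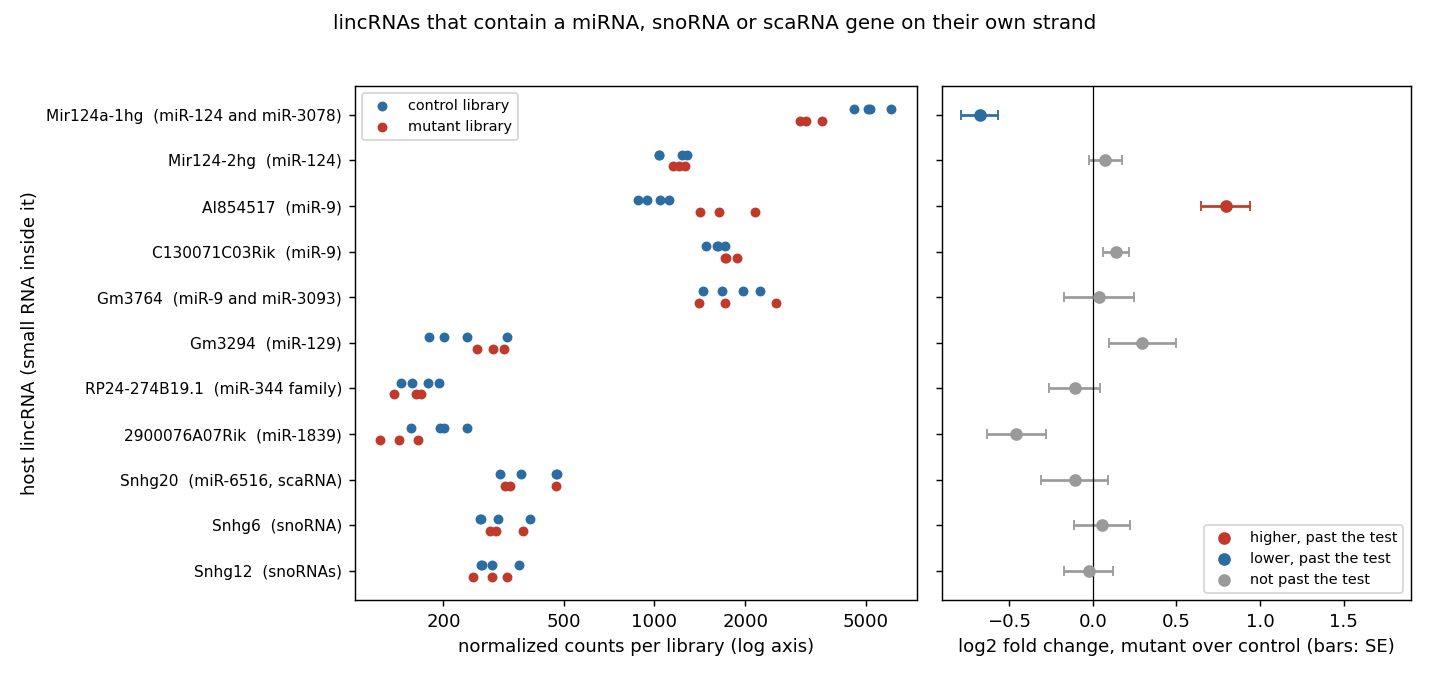
The 11 member lincRNAs that contain a miRNA, snoRNA or small Cajal body RNA (scaRNA) gene on their own strand, with normalized counts per library on a log axis (left, blue control and red mutant) and the log2 fold change with its SE (right). *Mir124a-1hg* lies left of 0 at -0.68 and *AI854517* right of 0 at 0.79, and the 9 others did not pass the test.

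In all, 11 members held 27 annotated small RNA entries on their own strand (19 miRNA, 6 snoRNA and 2 scaRNA entries). Overlapping entries of *Snora16a* were counted separately, and *Mir1839* was counted both as a miRNA and as a scaRNA. *Mir124a-1hg* and *AI854517* were the members past the test. Of the 9 others 1 had an unadjusted p of 0.05 or less in edgeR's test, and neither DESeq2 nor limma-voom called any. *Gm3294*, host of *Mir129-1*, had 179 to 324 normalized counts in control and 259 to 317 in mutant libraries (log2 fold change 0.30, SE 0.20, adjusted p = 0.517). In libraries 10 to 13 alone edgeR called *Gm3294* (log2 fold change 0.54, adjusted p = 0.0407). *RP24-274B19.1*, which spans 9 miRNA genes that include the miR-344 family, had 145 to 193 in control and 137 to 169 in mutant libraries (log2 fold change -0.11, SE 0.15). *2900076A07Rik*, host of *Mir1839*, had the largest fold change among hosts that missed the threshold, at -0.46 (SE 0.18, adjusted p = 0.21), with libraries that overlapped.

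snoRNA hosts carry small RNAs that guide chemical modification of ribosomal RNA. *Snhg6*, with *Snord87* in an intron, had 265 to 386 normalized counts in control and 285 to 367 in mutant libraries, a log2 fold change of 0.05 (SE 0.17, adjusted p = 0.912). *Snhg12*, which holds *Snora16a*, *Snora44*, *Snora61* and *Snord99*, had 265 to 356 and 252 to 326, a log2 fold change of -0.02 (SE 0.15, adjusted p = 0.961). *Snhg20*, with *Mir6516* and a scaRNA, had 308 to 476 and 321 to 470 (log2 fold change -0.11, SE 0.20, adjusted p = 0.846). The genotypes overlapped in all 3 hosts. Of 8 measured genes for proteins of the snoRNA-protein particle, such as the methyltransferase gene *Fbl*, none passed edgeR's test (1 at an unadjusted p of 0.05 or less, 0 called by DESeq2 or limma-voom). All 8 fold changes were negative (median -0.14, against -0.01 over all genes).

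*Gm26809* (chr6:18844220-18847360, plus strand) had 1028, 1049, 1252 and 1239 normalized counts in control and 1939, 1884 and 1483 in mutant libraries. All mutant libraries lay above all controls, with library 13 nearest to them. The log2 fold change was 0.63 (SE 0.12, adjusted p = 0.021), with 0.90 from libraries 2, 3 and 5 and 0.44 from libraries 10 to 13. It was lost without mutant library 12 or mutant library 5, with an adjusted p of at most 0.0938. Its exons overlapped *Gm20186*, and 43.9% of its 36-base words occurred in another gene, so how the reads were shared among copies could change its count.

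*6330403K07Rik* (chr11:71031941-71033513, minus strand) was the called member with the highest level per kb of exon, 2012 in controls and 2776 in mutants. It had 3101, 3396, 2985 and 2542 normalized counts in control and 4537, 3868 and 4038 in mutant libraries, with no overlap. With a log2 fold change of 0.46 (SE 0.11, adjusted p = 0.0484) it passed narrowly, and the call was lost when any library other than control library 3 was left out, with an adjusted p of up to 0.152. limma-voom on all 7 libraries also missed the threshold (adjusted p = 0.0504). GENCODE M21 lists it as protein-coding, so under that annotation it is not a lincRNA. Its promoter (RefSeq, GRCm38.p6, chr11:71033568-71033867, minus strand) is shown beside the CG-rich one of *AI854517* and held 5 CG dinucleotides and none of the motifs searched.
6330403K07Rik promoter: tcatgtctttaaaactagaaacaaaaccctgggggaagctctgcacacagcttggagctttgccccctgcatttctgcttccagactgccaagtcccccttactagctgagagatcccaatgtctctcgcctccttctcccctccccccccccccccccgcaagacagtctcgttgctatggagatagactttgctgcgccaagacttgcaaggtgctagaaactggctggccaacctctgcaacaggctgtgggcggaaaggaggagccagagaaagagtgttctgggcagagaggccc

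The lincRNA class of the members was checked against GENCODE M21, a later annotation of the same build. It kept 116 of the 136 as lincRNAs. It listed 5 as protein-coding (*6330403K07Rik*, *Tunar*, *Gm11549*, *Gm42517* and *Gm2115*), 4 as antisense, 3 as bidirectional promoter RNAs, 3 as processed transcripts and 1 as a pseudogene, and 4 identifiers had no entry. Of the 7 called members, 6 remained lincRNAs.

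Among lincRNAs retained in the nucleus, *Neat1*, the scaffold of paraspeckles (chr19:5824708-5845478, minus strand), had 515, 604, 428 and 522 normalized counts in the controls 2, 3, 10 and 11. The mutants 5, 12 and 13 had 1201, 745 and 734. Every mutant library lay above every control, and library 5 stood well above the other two. The log2 fold change was 0.79 (SE 0.19), as large as that of *AI854517*, and the adjusted p of 0.0556 missed the threshold. It passed in 5 of 17 alternatives. Of 10 paraspeckle protein genes, among them *Nono* and *Sfpq*, none passed edgeR's test (1 at an unadjusted p of 0.05 or less, 0 called by DESeq2 or limma-voom) and 9 fold changes were negative (median -0.11).

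*Malat1* (chr19:5795690-5802672, minus strand), which collects in nuclear speckles, was the most abundant member by count. It had 42849, 53180, 25830 and 54636 normalized counts in control and 68113, 46070 and 42101 in mutant libraries. Control libraries alone spanned a wider range than the distance between the group means, and the log2 fold change was 0.24 (SE 0.26, adjusted p = 0.72). *Malat1* took between 0.0707% and 0.197% of a library's counts. Of 10 nuclear speckle protein genes, such as *Son* and *Srsf1*, none passed edgeR's test (2 at an unadjusted p of 0.05 or less, 0 called by DESeq2 or limma-voom) and 8 fold changes were negative (median -0.11).

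*Miat* (chr5:112213228-112229395, minus strand), a neuronal nuclear transcript known for repeats of the branch point letters ACTAAC that bind splicing factor SF1, had 21528, 16381, 12899 and 14777 normalized counts in control and 20616, 12329 and 12646 in mutant libraries. The highest library of each genotype was in the set 2, 3 and 5, and the log2 fold change was -0.11 (SE 0.22, adjusted p = 0.862). Its longest GENCODE M21 transcript held ACTAAC 11 times, 1.2 per kb, where the 132 members with a transcript, *Miat* included, held it 0.138 times per kb. *Miat* ranked 2 by this density, and no other member held ACTAAC more than 4 times. The stretch with most repeats, at chr5:112217313-112217455 in the last exon, is shown with its 4 copies in capitals.
Miat repeat stretch: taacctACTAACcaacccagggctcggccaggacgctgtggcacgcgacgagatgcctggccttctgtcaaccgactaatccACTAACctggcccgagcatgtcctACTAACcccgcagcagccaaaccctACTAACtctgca

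*1700020I14Rik*, known as Cyrano (chr2:119594297-119607502, plus strand), carries a site for miR-7 and is known to trigger the decay of that miRNA. Its level varied little, with 19031, 19953, 20482 and 19531 normalized counts in control and 17857, 19773 and 19255 in mutant libraries. The log2 fold change was -0.06 (SE 0.08, adjusted p = 0.771). Its transcript held TCTTCC, the complement of bases 2 to 7 of miR-7a, 11 times, or 1.33 per kb against 0.479 per kb over all member transcripts. It ranked 9 by this density, and another member transcript also held 11 copies. At 1 site (chr2:119602132-119602161, TCTTCC in capitals in the line that follows), 22 of the 23 bases of miR-7a-5p found their complement in order when gaps were allowed, and at the 10 other copies between 15 and 19 did.
1700020I14Rik miR-7 site: taagaacaacaaaatcaccaatgTCTTCCa

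**Figure D3:**
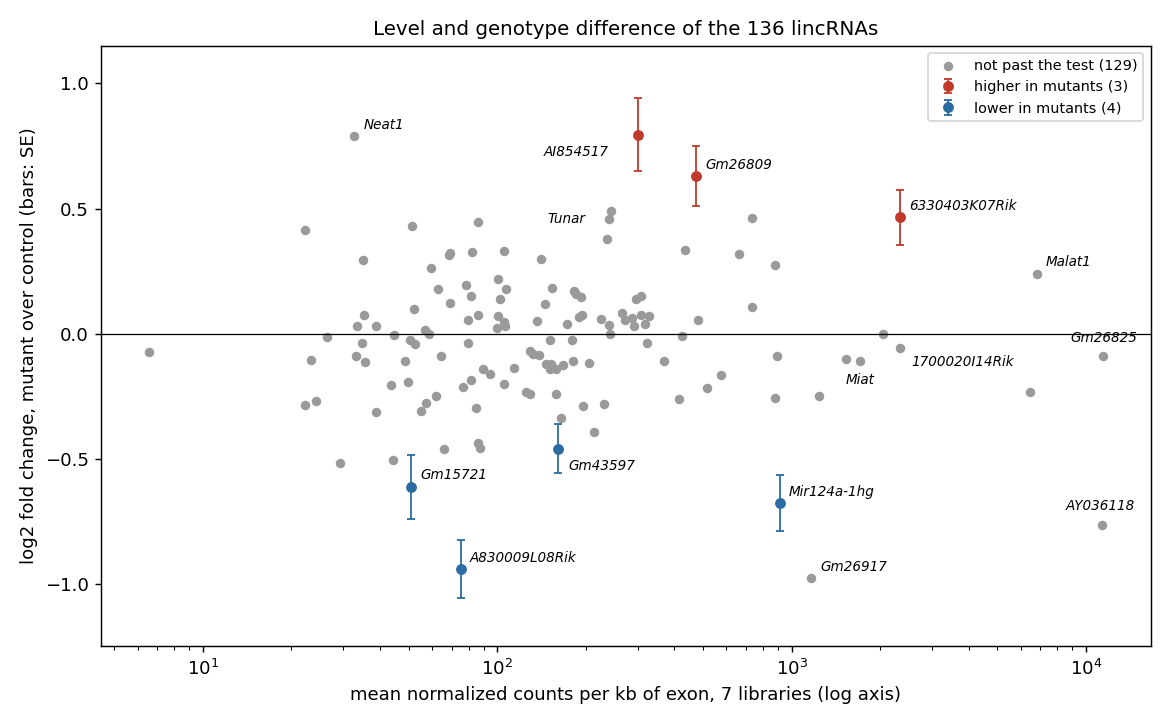
Mean normalized counts per kb of exon over 7 libraries (log axis) against the log2 fold change of mutant over control for the 136 lincRNAs; red and blue points with SE bars are the 3 higher and 4 lower members past the test and grey points the 129 others. The members past the test lie between 51.1 (*Gm15721*) and 2340 (*6330403K07Rik*) counts per kb, and *Gm26917* has the most negative fold change without passing.

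Of 4 lincRNAs beside developmental genes none passed edgeR's test, with 1 at an unadjusted p of 0.05 or less and 0 called by DESeq2 or limma-voom. *Pantr1*, 926 bases from *Pou3f3*, had 1354, 1720, 1359 and 1372 normalized counts in control and 1413, 1373 and 1461 in mutant libraries. Apart from control library 3 its libraries lay close together, with a log2 fold change of -0.04 (SE 0.10, adjusted p = 0.906). *Tunar*, known from pluripotent and neural cells and listed as protein-coding in GENCODE M21, had 880, 753, 624 and 556 in control and 1125, 805 and 963 in mutant libraries, a log2 fold change of 0.46 (SE 0.17, adjusted p = 0.206). *Tunar* passed with the set of library numbers as covariate (log2 fold change 0.53, adjusted p = 0.0101) and in libraries 10 to 13 alone (0.59, adjusted p = 0.0127). Within each set of library numbers its mutant libraries lay above its controls except that library 12 fell below control library 2 of the other set. *A330008L17Rik*, 171 bases from the cadherin gene *Cdh8*, had 124 to 154 in control and 95.8 to 130 in mutant libraries (log2 fold change -0.29, SE 0.16, adjusted p = 0.403).

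Named after their values were seen, *Dubr* and *Slmapos2* came next to the threshold. *Dubr* (chr16:50719294-50732773, minus strand), known from muscle differentiation, had 445, 482, 422 and 466 normalized counts in control and 360, 299 and 346 in mutant libraries, with no overlap. *Dubr* had a log2 fold change of -0.44 (SE 0.11, adjusted p = 0.0631). It passed in DESeq2 (adjusted p = 0.00894) and with the set of library numbers as covariate in edgeR (adjusted p = 0.0247), and in no other of the 17 alternatives. *Slmapos2* had 147 to 172 in control and 199 to 240 in mutant libraries, also without overlap (log2 fold change 0.45, SE 0.13, adjusted p = 0.0904), and passed in 1 of 17 alternatives.

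The members with the highest level per kb of exon were in part not separable from other genes. *Gm26825*, with 11415 normalized counts per kb the highest, shared 94.1% of its 36-base words with other genes. *AY036118* (chr17:39847113-39848035) overlaps an 18S ribosomal RNA sequence and shared 100% of its words, and *Gm26723* shared 97.1%. *Malat1*, *6330403K07Rik*, *1700020I14Rik*, *A830039N20Rik*, *Miat*, *Gm42517* and *Gm29562* followed, with 1244 to 6808 counts per kb. *A830039N20Rik*, inside the potassium channel gene *Kcnma1*, had 2427 to 3440 normalized counts in control and 2481 to 3064 in mutant libraries and a log2 fold change of 0.00 (SE 0.13). *Gm42517*, listed as protein-coding in GENCODE M21, had 738 to 778 in control and 679 to 722 in mutant libraries, without overlap, and a log2 fold change of -0.10 (SE 0.08). *Gm29562* shared 84.9% of its words and had a log2 fold change of -0.25 (SE 0.14). None of these passed the test apart from *6330403K07Rik*.

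At the ribosomal RNA repeat of chromosome 17, *AY036118* and *Gm26917* had standard errors above the members' median of 0.15. A further member there, *Gm42418*, had a log2 fold change of -0.17 and did not pass the test. Other genes overlapped 99.5% of its exon bases. *AY036118* had 9750, 21281, 9104 and 10805 normalized counts in control and 10760, 6775 and 4973 in mutant libraries, a log2 fold change of -0.76 (SE 0.35, adjusted p = 0.295). Control library 3 alone had 21281. *Gm26917* (chr17:39843013-39846341) lies beside it on the opposite strand and had 6306, 5053, 2946 and 5333 in control and 1621, 3439 and 2415 in mutant libraries. Its log2 fold change of -0.98 (SE 0.30, adjusted p = 0.113) was -1.81 from libraries 2, 3 and 5 and -0.50 from libraries 10 to 13. DESeq2 called *Gm26917* (adjusted p = 0.00626), and in libraries 10 to 13 alone edgeR called *AY036118* (log2 fold change -0.75, adjusted p = 0.0161). Ribosomal RNA left in the libraries was not tested as a source of these counts.

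**Figure D4:**
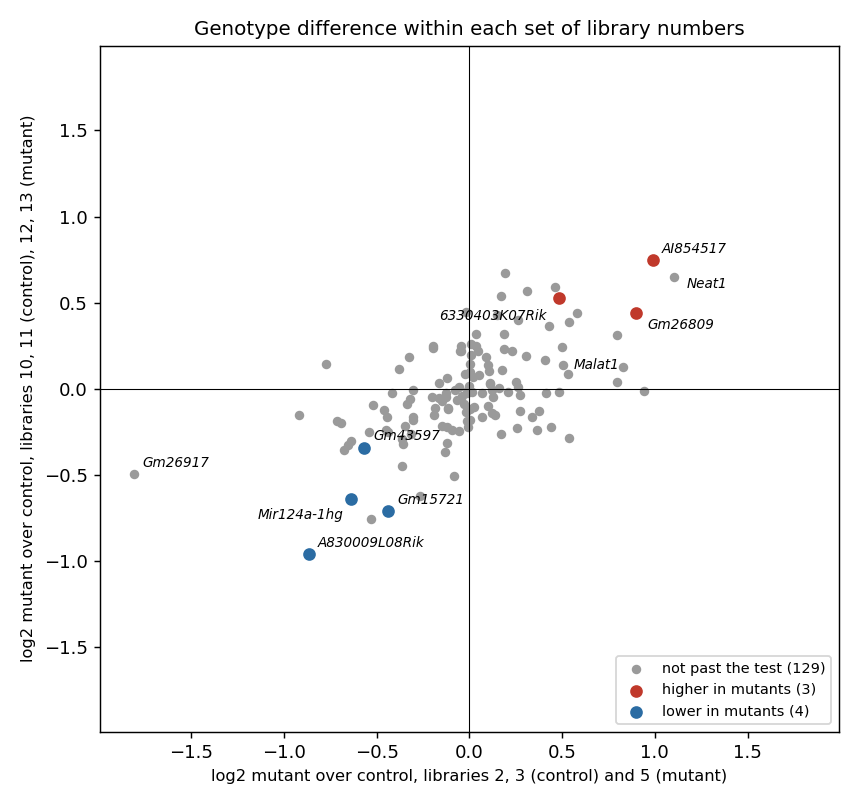
Log2 fold change of mutant over control in libraries 2, 3 and 5 (horizontal axis) and in libraries 10 to 13 (vertical axis), which share no library, for the 136 lincRNAs. The 7 members past the test (red and blue) fall in the quadrants where both sets have 1 sign, as do 98 of the 136 members.

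Fold changes were compared between both sets of library numbers. They had the same sign in 98 of 136 members (72.1%, against 70.2% of all tested genes) and in all 7 called ones, whose fold changes had been estimated from the same 7 libraries. In a test of whether the genotype difference varied between the sets, no member passed (edgeR's quasi-likelihood test of the interaction, adjusted over all genes, of which 0.0152% passed), and 9 of 136 had an unadjusted p of 0.05 or less, against 2.64% of all genes. In libraries 10 to 13 alone, 17 members passed (9 higher, 8 lower), against 9.44% of all genes. With the set as a covariate, 12 passed (7 higher, 5 lower), against 11.2% of all genes. DESeq2 called 11 members (5 higher, 6 lower), against 8.8% of all genes.

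Abundance and overlap gave the following comparison groups. Of 733 rarer autosomal lincRNAs that could be tested, 15 passed (11 higher, 4 lower; 2.05%), with a median absolute log2 fold change of 0.30 against 0.15 in the members. Autosomal protein-coding genes with at least 100 counts in every library passed in 657 of 11631 cases (5.65%), with a median absolute fold change of 0.13. Among members whose exons overlapped no other gene 5 of 86 passed, and among those with an overlap 2 of 50. Of 21 members with 50% or more of their words in another gene none passed edgeR's test, 1 had an unadjusted p of 0.05 or less, and DESeq2 and limma-voom called 0. The standard error of a member's log2 fold change had a median of 0.15 and ran from 0.076 to 0.44. No member with a log2 fold change smaller in size than 0.46 passed edgeR's test, and some larger ones, such as that of *Neat1*, missed the threshold.

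Members lay close to protein-coding genes: 25 overlapped the span of the nearest one, 29 lay within 1 kb of it and 24 lay over 50 kb away. Of the nearest protein-coding genes of the 7 called members, none passed edgeR's test, 2 had an unadjusted p of 0.05 or less, and DESeq2 and limma-voom called 0. *Ssbp2*, 72198 bases from *A830009L08Rik*, had a log2 fold change of -0.14 (SE 0.09) and *Kif13b*, 58570 bases from *Mir124a-1hg*, of 0.08 (SE 0.20). *Polg*, the mitochondrial DNA polymerase 33664 bases from *AI854517*, had -0.16 (SE 0.07, adjusted p = 0.269), opposite in sign to the lincRNA. *Mtus2*, 154 bases from *Gm15721*, had -0.35 (SE 0.13, adjusted p = 0.185), the same sign as the lincRNA.

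Over 123 pairs of a member and its nearest tested protein-coding gene, which share their libraries, 6 of 120 neighbours passed (5%). The share over all tested protein-coding genes was 5.78%. The correlation of the fold changes across pairs was r = 0.04 (Spearman's rho = 0.03). *Ddn*, dendrin, a dendritic protein, was lower (27402 ± 2350 to 15370 ± 800.2 normalized counts, SD, n = 4 and 3, log2 fold change -0.83, adjusted p = 0.0024), while *B130046B21Rik*, which overlaps it, had 173 ± 7.67 and 179 ± 26.5. *Galntl6* was lower (log2 fold change -0.86, adjusted p = 0.0023) and *Gm26905* inside it had a log2 fold change of 0.11 (SE 0.18), with 95.5% of its words found in another gene. *C2cd4b* was higher (56.3 ± 9.04 to 139 ± 32.5, log2 fold change 1.31, adjusted p = 0.0115), while *M5C1000I18Rik* on the opposite strand had a log2 fold change of 0.16 (SE 0.14). *Tspan9* beside *9330102E08Rik* was higher (0.41), and *Sh3gl3* beside *RP23-341H2.4* (-0.44) and *Sec14l1* beside *Snhg20* (-0.37) were lower, with no call for the lincRNA.

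**Figure D5:**
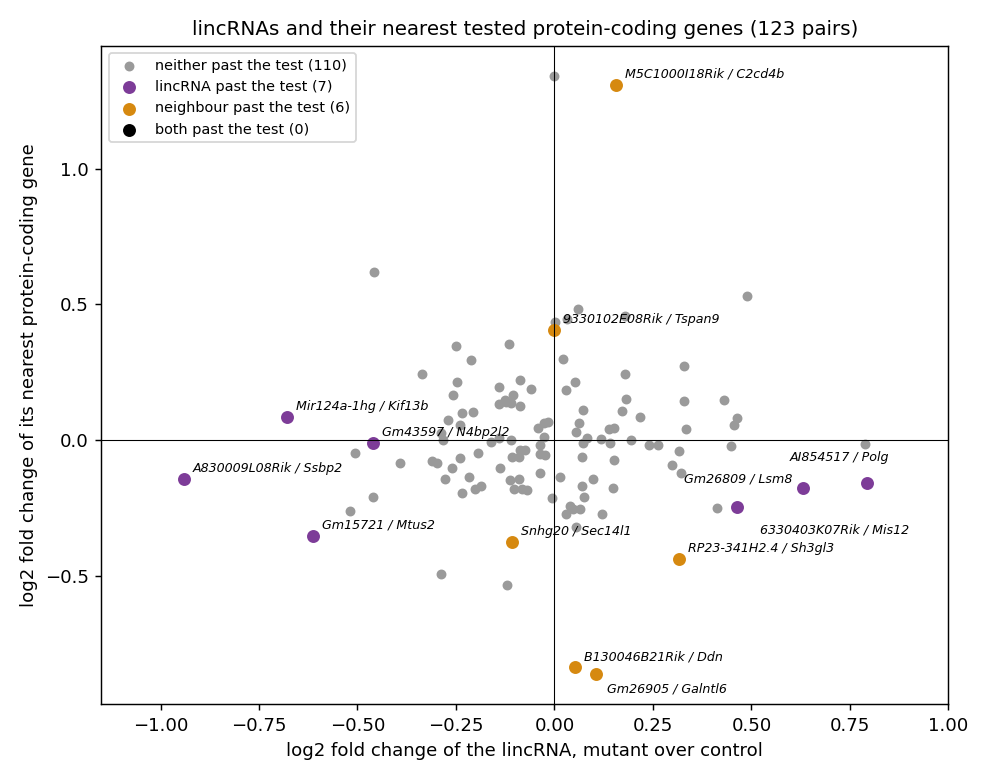
Log2 fold change of a lincRNA (horizontal axis) against that of its nearest tested protein-coding gene (vertical axis) in 123 pairs. The 7 pairs with a called lincRNA (purple) and the 6 with a called neighbour (orange) do not coincide, and no pair has both past the test.

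At the edge of the count rule, the 5 members with the smallest lowest count were *A330008L17Rik* (100), *Gm37276* (100.44), *Gm26541* (102.58), *Gm17275* (102.61) and *BC002059* (103.49 counts). Just outside it lay *Gm43949* (98), *6720427I07Rik* (96), *5930412G12Rik* (95.97), *Gm26848* (95.83) and *1700086O06Rik* (94.29). Their log2 fold changes ran from -0.31 to 0.07 inside and from -0.40 to 0.43 outside the rule, given here with no test.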

How the data were processed

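Reads (36 bp, single-end) were trimmed by the authors with cutadapt 1.9.1, aligned to transcripts of Ensembl release 84 (GRCm38) with Bowtie2 2.2.9 and counted with RSEM 1.2.31, whose expected counts per gene the authors deposited. The RNA kit named in the labels is known to select polyadenylated RNA and to keep no strand, so overlapping and antisense genes cannot be separated. A further deposited table holds the authors' DESeq2 comparison (fold changes, test scores and p-values) and was not used. Columns of per-sample values left unused numbered 0.

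Expected counts were rounded, genes with at least 10 counts in 3 libraries were normalized by TMM, and genotypes were compared with edgeR 4.0.16 (R 4.3.3) without covariates, with Benjamini-Hochberg adjustment over 19684 genes. Normalized counts are counts over the relative effective library size. Alternatives used DESeq2 1.42.0, limma 3.58.1 (voom), other normalizations, filters, library sets and member rules. The script was tested on simulated data. Named were called members, the 10 highest per kb, role lists, members nearest the count threshold and called neighbours; hosts of small RNAs were found by position. Members and lists were chosen with earlier results of these data known. 36-base words were compared in GENCODE M21 transcripts (132 of 136 members), and promoters (68 members) and miRNAs came from RefSeq (GRCm38.p6).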

Additional observations from a re-analysis of the deposited data

Results flagged for a closer look

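Among 136 lincRNAs, 14 had 1 control library whose gap to the nearest of the others, as a share of the range of the 4 controls, was over Dixon's critical value at the 95% level. The share was 10.3%, where chance alone flags about 5% of groups drawn from a single population. Control libraries 2 and 3 stood apart from 10 and 11 on the first principal component, and the members share their libraries. The share over all genes was not computed, so 10.3% cannot be read as an excess in these lincRNAs. Control library 3 stood apart in 11 of the 14 and control library 2 in 3.

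Control library 3 was highest for *A330009N23Rik* (0.990, 414 normalized counts against 271 to 272), *Pantr1* (0.952), *2010320M18Rik* (0.904), *Gm42517* (0.885), *Smim20* (0.866), *2610035D17Rik* (0.861), *AY036118* (0.860) and *Gm20045* (0.840). It was lowest for *2310015A10Rik* (0.870), *Gm20342* (0.865) and *Gm26819* (0.848). Control library 2 was highest for *Gm38102* (0.900) and *4933404O12Rik* (0.830) and lowest for *1300002E11Rik* (0.870). The cause was not tested.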

How the results depend on the processing

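No paired analysis was possible because the columns of the count table carry a library number and no replicate number. All alternatives kept the sign of the 7 called members, and of 119 refits of them 92 kept the call. Members higher in mutants numbered 3 and rose to 5 with DESeq2, 7 with the set of library numbers as covariate, 9 in libraries 10 to 13 alone and 5 with a minimum of 50 counts. Members lower numbered 4, with 8 in libraries 10 to 13 alone and 2 with a minimum of 200 counts. Genes called in all numbered 954, with 1731 by DESeq2, 2205 with the covariate and 1858 in libraries 10 to 13 alone. Called neighbours numbered 6, with 12 under the covariate and 12 in libraries 10 to 13 alone, and rarer lincRNAs 15, with 29 under the covariate. With each library left out in turn, these counts ran from 1 to 3 (members higher), 1 to 4 (members lower), 302 to 971 (all genes), 5 to 20 (rarer lincRNAs) and 3 to 6 (neighbours). All were at their lowest without mutant library 13, where every count except that of all genes was tied with another such fit. Over these fits the median of members ran from -0.037 to -0.0046, and it was 0.005 under upper quartile normalization. With 4 pools against 3 and a median standard error of 0.15 on the log2 scale, no lincRNA of this set with a difference smaller in size than 0.46 passed, and some at about 4 standard errors missed the threshold.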
